A study of Hordeum vulgare with 32 samples.

Results

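Of the 30174 transcripts in an RNA-seq table of barley (Hordeum vulgare) shoot apices, 2 are described here: MLOC_69611.1, a row with JmjC and C5HC2 zinc finger matches on chromosome 1 that stands for VRS3 (INT-A), and MLOC_50345.1, a row whose Arabidopsis match is REF6. They were chosen by name and match with their levels in these libraries known, so their levels and fold changes are a description and no p is given for them. RNA came from the main shoot apex of 5 lines at 2 Waddington stages, which score how far the inflorescence and its floral organs have developed. Of these, 4 are introgression lines in the background of cultivar Bowman, with 3 libraries each per stage: int-a.1, from stock GSHO 2055, vrs4.k, from GSHO 1986, vrs1, from GSHO 1907, and int-c.5, from GSHO 2003. Bowman itself, the 2-rowed parent they are set against, had 4 libraries per stage. All plants grew untreated under a 16 h day (22 °C) and an 8 h night (18 °C). The later stage is W5.5 in the labels and W5.0 in the series text, and the earlier one is W3.5. The labels name no lesion in any line, so no level checks a line's identity, and they do not say how many plants a library holds. An introgression line carries donor chromosome segments beside the locus it is named for, and the labels do not give them.

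JmjC proteins are oxygenases that use iron and 2-oxoglutarate, and many of them take methyl groups off lysines of histone H3. VRS3 is one of the barley row-type genes: loss of its function lets lateral spikelets, which stay sterile in 2-rowed barley, set grain to a varying degree. In Arabidopsis, REF6 (RELATIVE OF EARLY FLOWERING 6) joins a JmjC domain with C2H2 zinc fingers that bind DNA, removes the repressive Polycomb mark from its targets and takes part in the control of flowering time.

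Values are TPM, an abundance scaled by transcript length and by library. All int-c.5 columns are in another number format than those of the other lines. Whether they were processed apart is not stated, so line and processing cannot be told apart in int-c.5. Library sums lay between 980900 and 987700 TPM, and sequencing depth is unknown. A first principal component held 24.2% of the variance, with median scores of 18.6 at W5.5 and -22.9 at W3.5. The scores of 4 libraries went beyond the opposite stage's median: replicate 1 of int-a.1 W3.5, replicate 2 of vrs4.k W3.5, replicate 1 of int-c.5 W5.5 and replicate 4 of Bowman W3.5. Values without these 4 libraries are given beside the main results. Because the choice used both stage and score, leaving them out favours stage differences across the whole table. Wider stage folds or more stage calls in that setting are therefore no added support. As a check of the tissue, 5 rows matched to KNAT1, a meristem homeobox gene, were above 0 in all 32 libraries, and their summed level ranged from 50.7 to 97.0 TPM at W5.5 and from 43.8 to 101.1 TPM at W3.5. In bulk apices, fewer cells of a type and less RNA per cell cannot be told apart.

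MLOC_69611.1 is a high-confidence gene model at map position 47.52 of chromosome 1, with a rice match described as a JmjC domain protein. It was a weakly to moderately expressed row in every line, at a mean of 5.46 TPM over the 32 libraries, which placed it 28th of the 39 rows of a list of jumonji matches. In int-a.1, the line named for its locus, it was at 5.1, 4.3 and 5.3 TPM at W5.5, against 7.0, 5.8, 4.8 and 7.0 TPM in Bowman. At W3.5 the int-a.1 libraries had 5.9, 3.7 and 5.1 TPM, against 3.3, 4.4, 4.2 and 8.9 TPM in Bowman. The ranges of int-a.1 and Bowman overlapped at both stages, and the 6 int-a.1 libraries spanned less than the 8 Bowman libraries.

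The other lines overlapped Bowman as well. In vrs4.k the row was at 4.9, 8.2 and 6.5 TPM at W5.5 and at 9.0, 7.5 and 4.3 TPM at W3.5. In vrs1 it was at 6.0, 4.9 and 7.0 TPM at W5.5 and at 5.2, 5.0 and 4.6 TPM at W3.5. The int-c.5 libraries had 4.07, 5.00 and 4.94 TPM at W5.5 and 5, 4.01 and 3.66 TPM at W3.5. The line vrs4.k thus held the highest group means, 6.93 ± 2.40 TPM at W3.5 and 6.53 ± 1.65 TPM at W5.5 (SD, n = 3 each), and int-c.5 the lowest, 4.67 ± 0.520 TPM at W5.5 and 4.22 ± 0.694 TPM at W3.5 (SD, n = 3 each). Every neighbouring pair in the order of the 10 group means overlapped in range.

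**Figure D1:**
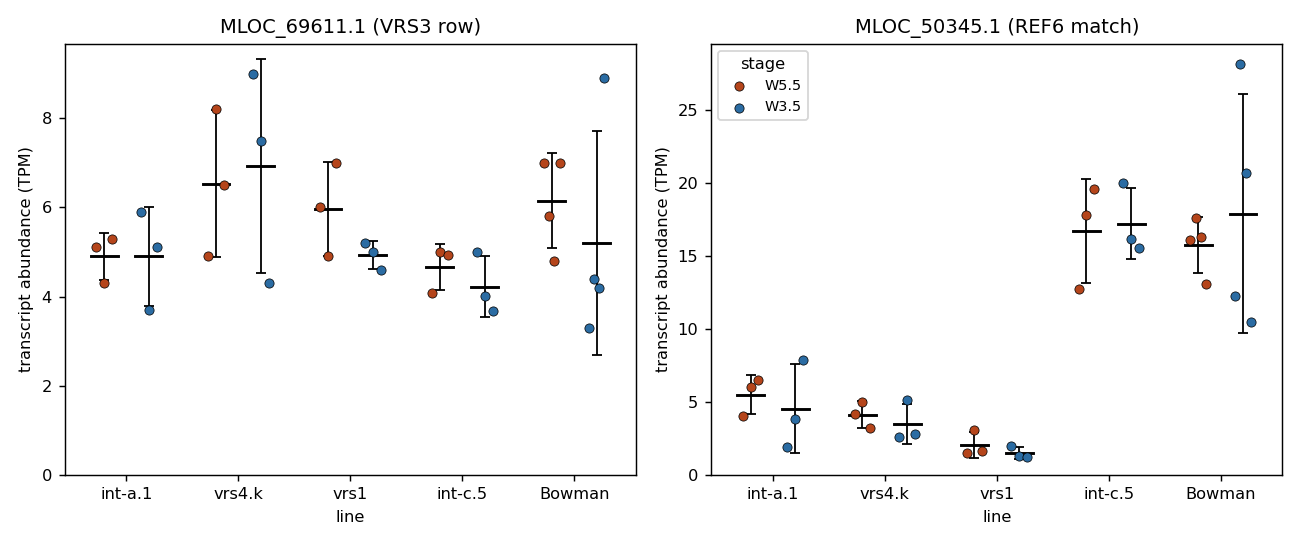
Transcript abundance (TPM) of the VRS3 row (left) and of the REF6-matching row (right) in each of 32 libraries, by line and stage. Points are libraries, the horizontal bars are group means and the error bars are SDs (n = 3 for each line and stage, n = 4 for Bowman). The VRS3 row lies between 3.3 and 9 TPM in every line, while the REF6-matching row is at 7.9 TPM or below in int-a.1, vrs4.k and vrs1 and at 10.5 TPM or above in int-c.5 and Bowman.

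Fold changes are differences of log2(TPM + 1) between groups from a limma fit of all 32 libraries, with 95% intervals, and they understate the change of weakly expressed rows. For MLOC_69611.1 the log2 fold of int-a.1 against Bowman was -0.27 at W5.5 (SE 0.226, interval -0.73 to 0.20) and -0.01 at W3.5 (interval -0.48 to 0.45). Averaged over both stages it was -0.14 (SE 0.160, interval -0.47 to 0.19). The interval therefore still holds a log2 decrease of 0.47 and does not show that the levels were equal. In vrs4.k the log2 fold was 0.06 at W5.5 and 0.38 at W3.5 (interval -0.08 to 0.85). In vrs1 it was -0.04 at W5.5 and 0.01 at W3.5. In int-c.5 it was -0.33 at W5.5 (interval -0.79 to 0.14) and -0.18 at W3.5. In the authors' deposited table the log2 fold change over both stages was -0.13 in int-a.1, 0.28 in vrs4.k, 0.02 in vrs1 and -0.24 in int-c.5.

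Set against each other over both stages, in comparisons added after the data were seen, vrs4.k exceeded int-c.5 by 0.48 on the log2 scale for MLOC_69611.1 (interval 0.12 to 0.83), and int-a.1 was below vrs4.k (log2 difference -0.36, interval -0.72 to -0.01). With the 4 libraries beyond the opposite stage's median left out, these differences were 0.40 (interval 0.07 to 0.73) and -0.39 (interval -0.71 to -0.06). These intervals are not adjusted for the 6 pairs of lines looked at. With all libraries, every stage difference of the row had an interval that spanned 0: the log2 fold of W5.5 against W3.5 was 0.27 in Bowman (interval -0.16 to 0.70), 0.01 in int-a.1, -0.05 in vrs4.k, 0.22 in vrs1 and 0.12 in int-c.5, with a mean over the 5 lines of 0.12 (SE 0.105, interval -0.10 to 0.33). The stage fold without the 4 libraries was 0.52 in Bowman (interval 0.13 to 0.91) and 0.22 over the 5 lines (interval 0.02 to 0.42). Neither interval spanned 0, and limma called neither. The 4 were picked by stage and by a score that this row follows. Leaving them out therefore favours a stage difference in it, and nothing is read from these intervals. The stage change in a line minus that in Bowman ranged from -0.32 in vrs4.k to -0.05 in vrs1, with each interval spanning 0.

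**Figure D2:**
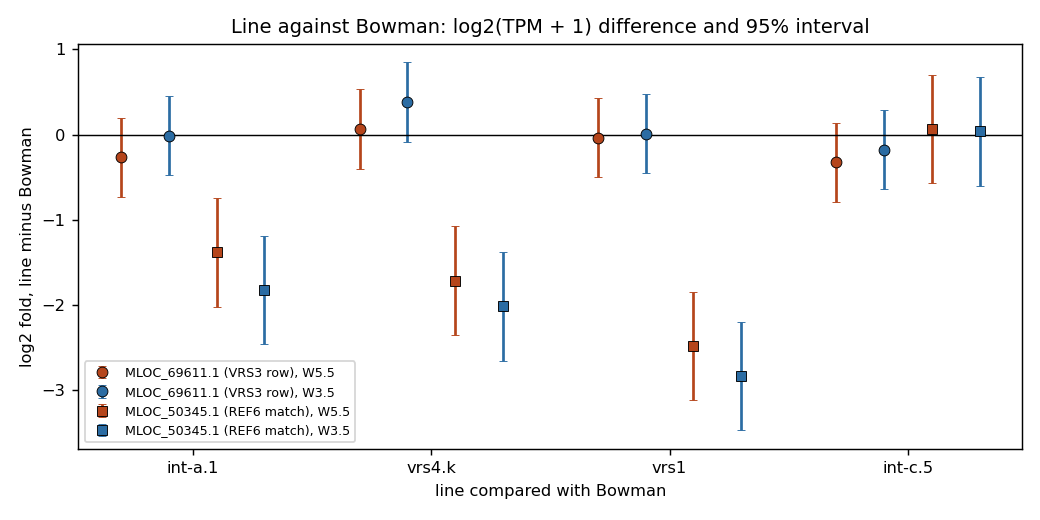
Log2 fold changes, line minus Bowman on the log2(TPM + 1) scale, of the VRS3 row (circles) and the REF6-matching row (squares) at each stage; bars are 95% intervals from the fit of 32 libraries. The 8 intervals of the VRS3 row span 0, and the REF6-matching row lies between -1.38 and -2.83 in int-a.1, vrs4.k and vrs1 and at 0.07 and 0.04 in int-c.5.

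Within groups, the VRS3 row moved with the first principal component. Over the 32 libraries Pearson's r between its log2(TPM + 1) and the score was 0.741 and Spearman's rho was 0.751, and r was 0.735 after the group means were subtracted. The value was 0.682 without the 2 libraries farthest from the median score, 0.611 over the 16 W5.5 libraries and 0.853 over the 16 W3.5 libraries. This is not particular to the row: 33 of the 37 other jumonji rows had r above 0, with a median of 0.488 and a highest value of 0.943, and 86.6% of all transcripts had a smaller absolute r. The score was computed from all transcripts of the same libraries, this row included. The library Bowman W3.5 replicate 4, at 8.9 TPM, scored 21.7, while the other 3 Bowman W3.5 libraries, at 3.3 to 4.4 TPM, scored -56.6 to -13.8. The part of this spread in the line comparisons was not tested; without the 4 libraries that went beyond the opposite stage's median, MLOC_69611.1 averaged 4.70 TPM in 5 int-a.1 libraries and 5.21 TPM in 7 Bowman libraries. Its log2 folds against Bowman without the 4 were -0.27 at W5.5 and 0.12 at W3.5 in int-a.1 (interval -0.35 to 0.58) and 0.07 at W3.5 in int-c.5 (interval -0.34 to 0.49). In vrs4.k they were 0.56 at W3.5 (interval 0.10 to 1.02) and 0.31 over both stages (interval 0.01 to 0.61), neither of which spanned 0. These intervals are not adjusted for the line comparisons looked at, and limma called neither. The libraries left out, Bowman W3.5 replicate 4 at 8.9 TPM among them, were picked by a score that the row follows.

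**Figure D3:**
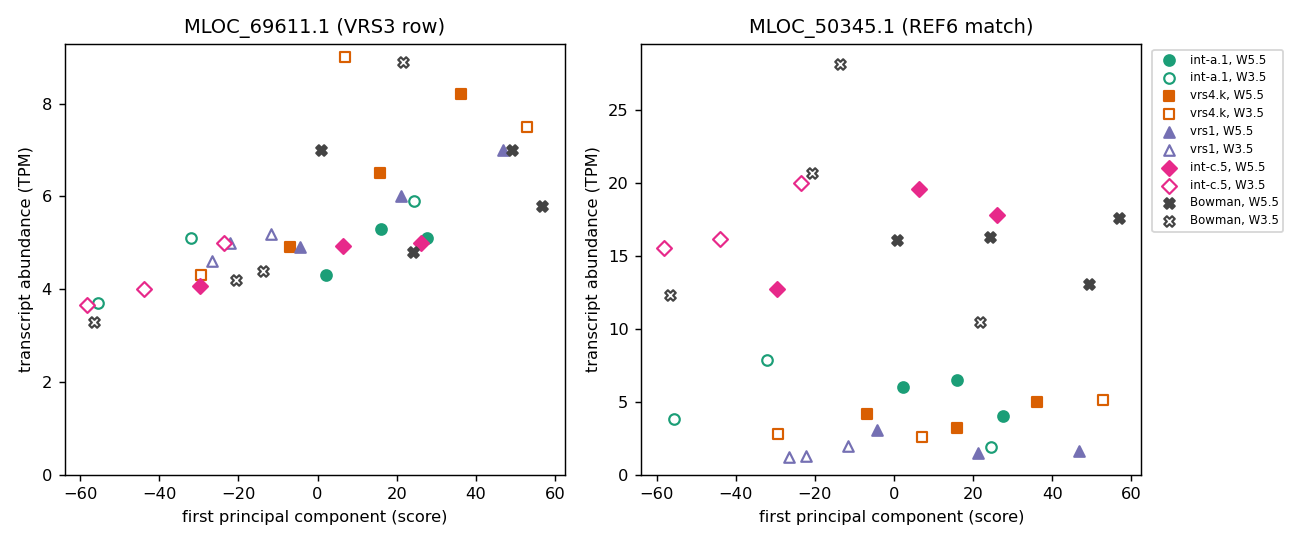
Transcript abundance (TPM) of the VRS3 row (left) and the REF6-matching row (right) against the score of each of 32 libraries on the first principal component of log2(TPM + 1). Filled symbols are W5.5 and open symbols W3.5. The VRS3 row is higher in libraries with a higher score (r = 0.741 on the log2 scale), whereas the REF6-matching row is lower in every int-a.1, vrs4.k and vrs1 library than in every int-c.5 and Bowman library.

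By Pearson's r over the 32 libraries, the 5 transcripts most like MLOC_69611.1 were MLOC_65286.1 (NAC100 match, r = 0.916), MLOC_4737.2 (a plant mobile domain match, 0.911), MLOC_73347.2 (a MYB and homeodomain-like match, 0.909), MLOC_67619.2 (an AT-hook DNA-binding match, 0.907) and AK371946 (a GRAS family match, 0.902). They were taken from 30116 transcripts with a mean of at least 1 TPM, and the next one stood at 0.901. All 5 also moved with the first component, with r between 0.737 and 0.858, and within groups their r with the row was 0.905 to 0.922. MLOC_65286.1, the closest, had medians of 9.75 TPM in int-a.1, 14.5 in vrs4.k, 10.4 in vrs1, 8.66 in int-c.5 and 12.4 in Bowman. By median it was highest in vrs4.k and lowest in int-c.5, as was the VRS3 row, whose medians were 5.1, 7.0, 5.1, 4.50 and 5.3 TPM in the same lines. MLOC_65286.1 was picked for its r with the row over these libraries, so this likeness is in part built in.

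A second row, MLOC_53868.1, has the same Arabidopsis match as MLOC_69611.1 but another rice match, and lies on chromosome 6 at 62.75. Its levels ran from 1.9 to 4.6 TPM over the 32 libraries, and its r with the VRS3 row was 0.454, or 0.524 after group means were subtracted. Its log2 fold in int-a.1 against Bowman over both stages was 0.20 (SE 0.096), and limma called it in 0 comparisons. The rows said to stand for other row-type loci were chosen with their values known. In int-a.1 over both stages, AB259783.1 (MLOC_4993.2), for VRS1, a homeodomain-leucine zipper repressor of lateral spikelets, had a log2 fold of -1.94 against Bowman (SE 0.340), MLOC_70116.1, for INT-C, had -1.05 (SE 0.179), and AK373051, for VRS4, had -0.08 (SE 0.144). Low levels of the first pair were not confined to int-a.1. AB259783.1 (MLOC_4993.2) had log2 folds of -3.22 in vrs4.k, -0.03 in vrs1 and -1.26 in int-c.5, or -0.90 in int-c.5 without the 4 libraries beyond the opposite stage's median. MLOC_70116.1 had -1.07 in vrs4.k, -0.03 in vrs1 and -0.80 in int-c.5, or -0.59 in int-c.5 without the 4. Without the 4 the vrs1 values were 0.16 for AB259783.1 (MLOC_4993.2) and 0.07 for MLOC_70116.1, with a limma adjusted p above 0.05 either way. AK373051 had -0.43 in vrs4.k, -0.10 in vrs1 and -0.02 in int-c.5.

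MLOC_50345.1 is a low-confidence gene model without a map position, and the submitters' rice match, LOC_Os01g67970.1, is described as a C2H2 zinc finger protein. Its 32 libraries fell into 2 separate levels by line. In the 18 libraries of int-a.1, vrs4.k and vrs1 it ranged from 1.2 to 7.9 TPM, and in the 14 libraries of int-c.5 and Bowman from 10.5 to 28.2 TPM, with no overlap. The share of all transcripts that separate these lines in this way was not counted. The mean over both stages was 29.8% of the Bowman mean in int-a.1, 22.7% in vrs4.k, 10.6% in vrs1 and 101% in int-c.5.

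At W5.5 the row was at 4.0, 6.0 and 6.5 TPM in int-a.1, at 4.2, 5.0 and 3.2 TPM in vrs4.k and at 1.5, 3.1 and 1.6 TPM in vrs1. At that stage it was at 12.7, 17.8 and 19.6 TPM in int-c.5 and at 16.1, 17.6, 16.3 and 13.1 TPM in Bowman. The first 3 lines were below every library of int-c.5 and Bowman, and vrs1 was below every vrs4.k library. The W3.5 libraries had 1.9, 3.8 and 7.9 TPM in int-a.1, 2.6, 5.1 and 2.8 TPM in vrs4.k and 2.0, 1.3 and 1.2 TPM in vrs1. At W3.5 int-c.5 had 20, 16.1 and 15.6 TPM, and Bowman 12.3, 28.2, 20.7 and 10.5 TPM. In the order of the 10 group means, from 17.9 ± 8.17 TPM in Bowman W3.5 (SD, n = 4) to 1.5 ± 0.436 TPM in vrs1 W3.5 (SD, n = 3), the ranges of neighbours overlapped except at 1 step, between Bowman W5.5 (15.8 ± 1.90 TPM, n = 4) and int-a.1 W5.5 (5.50 ± 1.32 TPM, n = 3).

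The log2 fold of MLOC_50345.1 against Bowman in int-a.1 was -1.38 at W5.5 (SE 0.310, interval -2.02 to -0.74) and -1.82 at W3.5 (interval -2.46 to -1.18). In vrs4.k it was -1.72 at W5.5 (interval -2.36 to -1.08) and -2.01 at W3.5 (interval -2.65 to -1.37). In vrs1 it was -2.48 at W5.5 (interval -3.12 to -1.84) and -2.83 at W3.5 (interval -3.47 to -2.19). In int-c.5 it was 0.07 at W5.5 (interval -0.57 to 0.70) and 0.04 at W3.5 (interval -0.60 to 0.68). All 4 lines share the Bowman libraries, so their folds are not independent of each other. In the authors' deposited table the log2 fold change over both stages was -1.66 in int-a.1, -1.93 in vrs4.k, -2.87 in vrs1 and 0.10 in int-c.5.

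In calls at an adjusted p below 0.05 (limma, Benjamini-Hochberg over 30174 transcripts), MLOC_50345.1 was among those of 6 of the 8 comparisons of a line with Bowman at 1 stage, and MLOC_69611.1 of none. The share of all transcripts called was 0.709% at W5.5 and 0.653% at W3.5 in int-a.1, 0.696% and 0.653% in vrs4.k, 0.325% and 0.341% in vrs1, and 0.106% and 0.0994% in int-c.5. Over both stages it was 2.13% in int-a.1, 1.54% in vrs4.k, 0.497% in vrs1 and 0.345% in int-c.5. The row was chosen with these contrasts known, so nothing is read from its calls. The int-a.1 call at W5.5 was absent without Bowman W5.5 replicate 1 (log2 fold -1.37), 2 (-1.33) or 3 (-1.36) and without int-a.1 W5.5 replicate 1 (-1.20) or 2 (-1.45).

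Among the 3 lines with low levels, vrs1 was the lowest. Over both stages the log2 fold against Bowman was -1.60 in int-a.1, -1.86 in vrs4.k and -2.66 in vrs1 (SE 0.219 each). In line pairs added after the data were seen, int-a.1 was above vrs1 by 1.05 on the log2 scale (interval 0.57 to 1.54) and vrs4.k above vrs1 by 0.79 (interval 0.31 to 1.28). Between int-a.1 and vrs4.k the log2 difference was 0.26 (interval -0.22 to 0.75), which spans 0, and 0.58 (lower bound of the interval 0.15), which does not span 0, without the 4 libraries beyond the opposite stage's median. Without them vrs1 was also the lowest, at log2 differences of 1.25 from int-a.1 and 0.67 from vrs4.k. The row was picked with its contrasts known, and these are descriptions. The highest vrs1 library, at 3.1 TPM, was above the lowest of int-a.1 (1.9 TPM) and of vrs4.k (2.6 TPM), so single libraries of these lines overlapped.

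Every stage difference of MLOC_50345.1 had an interval that spanned 0. The log2 fold of W5.5 against W3.5 was 0.36 in int-a.1 (interval -0.32 to 1.04), 0.22 in vrs4.k, 0.27 in vrs1, -0.05 in int-c.5 and -0.08 in Bowman, with a mean over the 5 lines of 0.14 (SE 0.144, interval -0.15 to 0.44). The stage change in a line minus that in Bowman ranged from 0.03 in int-c.5 to 0.44 in int-a.1, and every interval spanned 0. The stage fold without the 4 libraries was -0.03 in int-a.1 and 0.12 in int-c.5, each with an interval that spanned 0. Differences between lines held 89.6% of the row's variance on the log2 scale, and 25.2% of that of MLOC_69611.1, against a median of 13.1% over all transcripts. With the first principal component, r was -0.06 for MLOC_50345.1 after group means were subtracted. Without the 4 libraries that went beyond the opposite stage's median, int-a.1 ranged from 3.8 to 7.9 TPM, vrs4.k from 2.6 to 5.0, int-c.5 from 15.6 to 20 and Bowman from 12.3 to 28.2. The levels then stood 7.9 and 12.3 TPM apart at their nearest libraries, against 7.9 and 10.5 TPM with all libraries.

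Counting by rice match, 10 other rows of the table share LOC_Os01g67970.1 with MLOC_50345.1, and reads could be split among rows this alike, so its value is uncertain as the level of 1 gene. Of these 10, 6 are high-confidence models. The 10 others differed less from Bowman than MLOC_50345.1 did in int-a.1, vrs4.k and vrs1. Over both stages their log2 folds against Bowman lay between -0.42 and 0.07 in int-a.1, between -0.35 and 0.20 in vrs4.k, between -0.38 and 0.21 in vrs1 and between -0.25 and 0.30 in int-c.5, and 0 of the 10 were called by limma in any of these comparisons, with 4 in int-a.1 and 0 in each other line at an unadjusted p below 0.05, against 13% of all transcripts in int-a.1 and 6.83% to 12.3% in the others. The 4 in int-a.1 were all below Bowman, as MLOC_50345.1 was: MLOC_27921.1 (log2 fold -0.32), MLOC_8576.1 (-0.38), MLOC_36073.1 (-0.42) and MLOC_46861.1 (-0.34). The r of the 10 others with MLOC_50345.1 over the 32 libraries ranged from -0.08 to 0.34. MLOC_46861.1, the most abundant of them, had medians of 38.8 TPM in int-a.1, 48.4 in vrs4.k, 47.6 in vrs1, 44.1 in int-c.5 and 49.4 in Bowman. Its ranges over both stages overlapped between lines. At W5.5 alone it was at 33.4 to 39.9 TPM in int-a.1, below the 43.2 to 80.1 TPM of Bowman. Its log2 fold there was -0.65 (interval -1.04 to -0.25), and limma did not call it. At W3.5 the ranges overlapped (37.6 to 49.9 and 36.2 to 50.9 TPM).

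The summed level of the 10 others also overlapped between lines. It ranged from 112.1 to 148.2 TPM in int-a.1, from 108.3 to 175 in vrs4.k, from 109.7 to 174.7 in vrs1, from 116 to 185 in int-c.5 and from 109.8 to 198.6 in Bowman. Of the sum of all 11 rows, MLOC_50345.1 made up a median of 3.88% in int-a.1, 2.68% in vrs4.k and 1.06% in vrs1, against 11.1% in int-c.5 and 9.96% in Bowman. Its highest share in the 3 lines with low levels was 6.58%, in an int-a.1 library, and its lowest in Bowman was 6.95%, in replicate 4 of W3.5. The lowest share in int-c.5 was 8.05%, so the shares did not overlap between these sets of lines either.

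**Figure D4:**
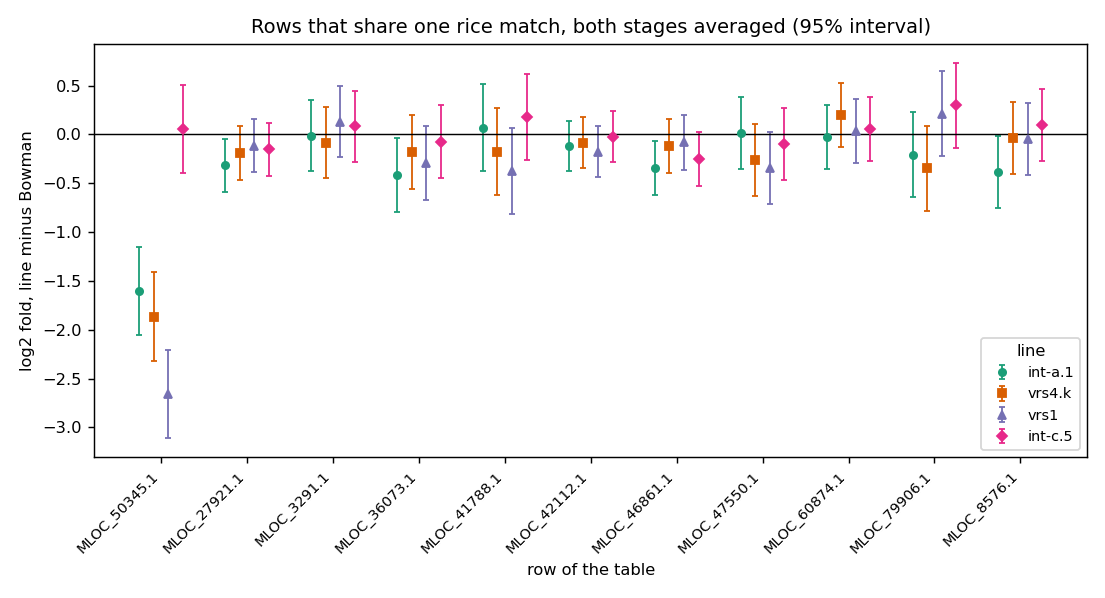
Log2 fold change, line minus Bowman on the log2(TPM + 1) scale with both stages averaged, of the 11 rows that share a rice match; bars are 95% intervals. MLOC_50345.1 (left) lies at -1.60, -1.86 and -2.66 in int-a.1, vrs4.k and vrs1, and the other 10 rows lie between -0.42 and 0.30 in all 4 lines.

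The 5 transcripts most like MLOC_50345.1 by Pearson's r over the 32 libraries were MLOC_35121.1 (r = 0.923), a histidine kinase 5 match, MLOC_39576.1 (0.916) and MLOC_29531.1 (0.905), low-confidence models on chromosome 5 at 43.54 and 125.76, MLOC_2297.1 (a PIF1 helicase match, 0.901) and MLOC_25487.2 (a serine carboxypeptidase-like match on chromosome 2 at 57.05, 0.900). MLOC_35121.1 had medians of 48.5 TPM in int-a.1, 22.8 in vrs4.k, 13.9 in vrs1, 85.9 in int-c.5 and 92 in Bowman. MLOC_29531.1 was at 0.6 to 3.2 TPM in int-a.1, vrs4.k and vrs1 and at 9.0 to 27.6 TPM in int-c.5 and Bowman. Each of the 5 was lower in every int-a.1, vrs4.k and vrs1 library than in every int-c.5 and Bowman library. This split was therefore not particular to MLOC_50345.1, though the 5 were picked for their r with it. Within groups r fell to between 0.209 and 0.508, so the likeness lay mostly between lines, where 5 line levels stand behind 32 points. Of the 5, MLOC_35121.1 and MLOC_2297.1 have no map position.

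Among the other jumonji rows, a list of 37 chosen by key words in the match descriptions, 0 were called by limma in any comparison of a line with Bowman, at 1 stage or over both. Between 0 and 4 of the 37 reached an unadjusted p below 0.05 in each comparison, against 4.3% to 13% of all transcripts. The highest count, 4 of 37, was in vrs1 at W3.5 and in int-a.1 over both stages, where 5.18% and 13% of all transcripts reached that p. The median log2 fold ran from -0.13 in vrs4.k at W5.5 (all transcripts, -0.06) to 0.16 in vrs4.k at W3.5 (all transcripts, 0.03). Without Bowman W5.5 replicate 1, 1 row was called in int-a.1 at W5.5. The variance between lines in these rows was 1.18% to 35.9% of the total (median 9.36%), and their highest library was 1.41 to 4.90 times the lowest in the 36 that were never listed at 0. MLOC_50345.1, chosen for its match and level, had a ratio of 23.5, and MLOC_69611.1 one of 2.73.

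**Figure D5:**
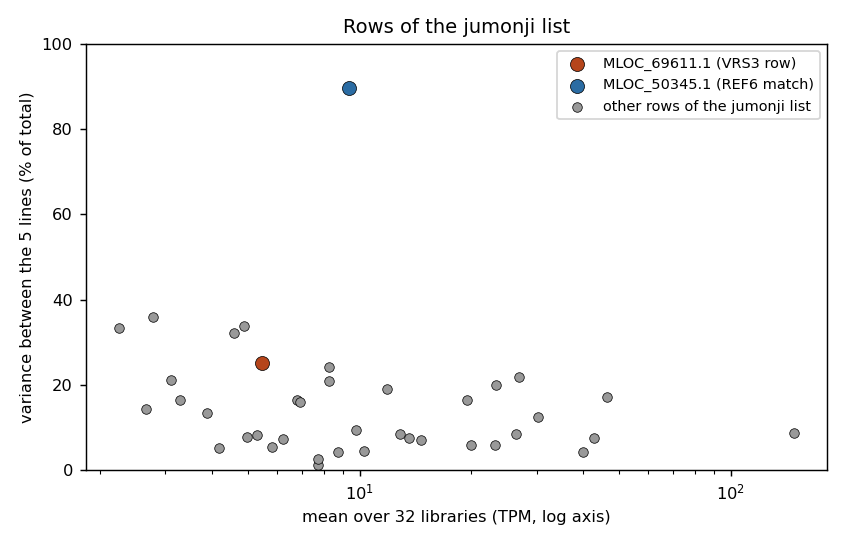
Share of the variance of log2(TPM + 1) that lies between the 5 lines (%) against mean abundance over 32 libraries (TPM, log axis) for the 39 rows of the jumonji list. MLOC_50345.1 stands at 89.6% and MLOC_69611.1 at 25.2%, while the other 37 rows lie at 35.9% or below.

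The share of these rows called between stages was near or below that of the whole table. Averaged over the 5 lines, 3 of the 37 were higher at W5.5 than at W3.5 and 1 was lower (limma, adjusted p below 0.05), or 10.8% of them against 16.6% of all transcripts. AK251482.1, the most abundant jumonji row, averaged 164.8 ± 13.3 TPM at W5.5 and 138.9 ± 20.8 TPM at W3.5 in Bowman (SD, n = 4 each), with a log2 fold over 5 lines of 0.17 (SE 0.054, limma adjusted p = 0.0371). MLOC_11348.2 rose by 0.27 (SE 0.084, limma adjusted p = 0.0319) and MLOC_1083.2 by 0.20 (SE 0.064, limma adjusted p = 0.0387) on the log2 scale. MLOC_65909.1, whose rice match is an F-box protein with a further domain, fell by 0.15 (SE 0.046, limma adjusted p = 0.0293). The count was 15 of 37, or 40.5% against 38.4% of all transcripts, without the 4 libraries beyond the opposite stage's median. Those libraries were chosen by stage and score, which favours stage calls, so nothing is read from the rise. With any single library left out, the count was between 1 and 9. It was 9 without any 1 of the affected libraries of int-a.1, vrs4.k and int-c.5. It was 7 without Bowman W3.5 replicate 4 or without replicate 1 of vrs4.k at W5.5. The median log2 fold was 0.13, against 0.07 over all transcripts.

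Within single lines no jumonji row was called between stages with all libraries: 0.00994% of all transcripts were called in int-a.1 and 0% in each of vrs4.k, vrs1, int-c.5 and Bowman, with 0 to 11 of the 37 at an unadjusted p below 0.05 (0 in vrs4.k and 11 in Bowman), against 2.1% of all transcripts in vrs4.k and 22.2% in Bowman. Without the 4 libraries beyond the opposite stage's median, a setting that favours stage calls, 5 jumonji rows were called in Bowman and 0 in each other line. In Bowman 10.6% of all transcripts were then called. Likewise 0% of all transcripts were called in each of the 4 tests of whether the stage change differed between a line and Bowman. By mean over the 32 libraries the 6 highest jumonji rows were AK251482.1 (147.8 TPM), MLOC_46861.1 (46.3 TPM), MLOC_11348.2 (42.8 TPM), MLOC_54401.2 (39.99 TPM), MLOC_71715.1 (30.3 TPM) and MLOC_8576.1 (26.9 TPM, chromosome 2 at 57.79), of which MLOC_46861.1 and MLOC_8576.1 share the rice match of MLOC_50345.1.

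Other chromatin genes around the demethylases were looked at through 3 further key-word lists. The 4 rows of the LSD1 type, demethylases of another chemistry that act on histones, were not called in any comparison with all libraries, with 0 at an unadjusted p below 0.05 in each line comparison (limma); the most abundant were MLOC_10199.2 (an LDL3 match, 13.8 ± 1.86 TPM in int-a.1 at W5.5 and 16.4 ± 3.06 TPM in Bowman; SD, n = 3 and 4, here and below) and MLOC_52666.1 (an LDL2 match, 11.4 ± 0.900 and 11.5 ± 1.70 TPM). Of 24 Polycomb rows, the complexes that write and read the mark REF6 removes in Arabidopsis, 0 were called in a line comparison, with 0 to 5 at an unadjusted p below 0.05 (limma), against 4.3% to 13% of all transcripts. The highest count, 5 of 24, was in vrs4.k at W3.5 and over both stages, where 9.91% and 12.3% of all transcripts reached that p. AK353826 was called in vrs4.k over both stages without the 4 libraries (log2 fold 0.50, limma adjusted p = 0.0357). The most abundant, AK251231.1 (matching SWN, a catalytic subunit in Arabidopsis), was at 117.3 ± 1.97 TPM in int-a.1 and 123 ± 12.7 TPM in Bowman at W5.5, and MLOC_66063.2 (a VIL2 match) at 69.4 ± 5.90 and 67.2 ± 4.41 TPM. Over the 5 lines, 2 of the 24 were higher at W5.5 than at W3.5, or 8.33% against 16.6% of all transcripts: AK374259, an enhancer of Polycomb match (log2 fold 0.16, limma adjusted p = 0.0167), and MLOC_79879.1 (0.27, limma adjusted p = 0.0249), whose match is a DEMETER-like DNA glycosylase that the key words brought in.

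Of 22 rows for SUVH- and SUVR-type histone methyltransferases and relatives, which write histone marks, 2 were called in a line comparison, both in int-c.5 and both SUVH5-type matches without a map position. They make 9.09% of the 22, against 0.106% of all transcripts called in int-c.5 at W5.5, 0.0994% at W3.5 and 0.345% over both stages. MLOC_42667.1 was listed at 0 in all 3 int-c.5 libraries at W5.5 and at 0 to 1.38 TPM at W3.5, against 17.3 to 26.5 TPM at W5.5 and 15.5 to 20.6 TPM at W3.5 in Bowman. MLOC_42597.1 was listed at 0 in all 3 int-c.5 libraries at W5.5 and at 0 to 4 TPM at W3.5, against 18 to 30 TPM at W5.5 and 11.4 to 30.6 TPM at W3.5 in Bowman. In int-a.1, vrs4.k and vrs1 neither was called. The int-c.5 columns alone have another number format, so line and processing cannot be told apart in these zeros. The most abundant of the 22, MLOC_56967.1 (a SET domain match, 100 ± 9.66 TPM in int-a.1 and 103.2 ± 7.46 TPM in Bowman at W5.5) and MLOC_63544.1 (a SUVH match, 45.2 ± 2.17 and 52.7 ± 9.03 TPM), were not called in any line. Over the 5 lines AK369467, MLOC_51414.1 and MLOC_52100.1, with SUVR matches, were higher at W5.5 than at W3.5 by 0.21, 0.30 and 0.32 on the log2 scale (limma adjusted p = 0.0375, 0.0335 and 0.0175). These 3 of 22 make 13.6%, near the 16.6% of all transcripts. Without the 4 libraries beyond the opposite stage's median, where 38.4% of all transcripts were called, 2 of the 4 LSD1-type rows, 10 of the 24 Polycomb rows and 11 of the 22 SUVH and SUVR rows were higher at W5.5 than at W3.5 and 0 lower. In Bowman alone, again without the 4, 8 of the 22 SUVH and SUVR rows (36.4%) were called between stages, all higher at W5.5. The count there was 2 of the 24 Polycomb rows (8.33%) and 0 of the LSD1-type rows, against 10.6% of all transcripts. Leaving out libraries by stage and score favours stage calls across the table, so nothing is read from the counts without the 4.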

How the data were processed

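RNA of 32 libraries was read from 1 deposited table of 30174 transcripts. Its expression columns are headed raw counts, but they are not whole numbers and each sums to nearly the same total, so the deposited values were taken as TPM. The 26 columns of int-a.1, vrs4.k, vrs1 and Bowman have 1 decimal, and no int-c.5 column does. One deposited int-c.5 column at W3.5 holds TPM rounded to whole numbers, given the unit score and analysed beside the TPM columns. BWA, Salmon, limma and GATK are named, without versions, per the submitters' processing notes; the sources used here give no genome build. The deposited log2 fold changes and their false discovery rates (p-values) are the authors', by a method that the sources used here do not state. The column headers give line, stage and a replicate number within each group; the labels carry no such number and nothing says that a number is shared between groups, so numbers were used as names; 0 per-sample columns were left unassigned.

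All 10 groups were fitted together with limma 3.58.1 (R 4.3.3) on log2(TPM + 1), without covariates, with Benjamini-Hochberg adjustment over all transcripts and calls at an adjusted p below 0.05. A filter for 1 TPM or more in 3 or more libraries removed 0 transcripts. The fit was checked on simulated data with independent noise in each transcript and library. That setting lacks the spread that transcripts share between real libraries, so it does not test the fit under such spread. TPM keeps no depth, so no interval for counting error is given. Gene names are those of the table's own best matches; 0 identifiers matched the reference gene table, and no sequences or genome coordinates are shown. The members and the gene lists were chosen with earlier results of these data known. Named are the 2 members, jumonji rows that were called, the 6 highest by mean, the 5 transcripts most like each member, called rows and the 2 highest of each other list, and 3 row-type rows; MLOC_53868.1 and the rows sharing a rice match were picked with their values in view. The tissue check with KNAT1 matches was chosen after the data were seen. Since the labels do not say that libraries came from separate plants, p-values measure the spread between these libraries. Alternatives were a pseudocount of 0.1, no filter, quantile normalization, only the groups compared, each library left out, the headers' replicate number as a block (added after the data were seen) and the 4 libraries beyond the opposite stage's median left out.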

Additional observations from a re-analysis of the deposited data

How the results depend on the processing

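In int-a.1, vrs4.k and vrs1, MLOC_50345.1 was below Bowman in all 78 alternatives at 1 stage and called in 69. Of the 9 others, 5 leave out 1 library (int-a.1 at W5.5), 1 is the pseudocount of 0.1 at that stage (-1.52), and 3 fit only the groups compared at W3.5 (-1.82, -2.01 and -2.83 in int-a.1, vrs4.k and vrs1). The 78 alternatives share most of their libraries, and those without a filter repeat the main fit. The row was also chosen with these contrasts known, so nothing is read from these counts. With a pseudocount of 0.1 the vrs1 log2 fold of MLOC_50345.1 was -2.94 at W5.5, -3.42 at W3.5 and -3.18 over both stages. Without the 4 libraries beyond the opposite stage's median, the vrs4.k log2 fold at W3.5 was -2.46 and its stage change minus that of Bowman was 0.744. The cause of these shifts was not tested. In that setting 5 jumonji rows were called between stages in Bowman, and 15 over the 5 lines. The 4 were chosen by stage and score, which favours stage calls, so nothing is read from these 2 counts. With single libraries left out, the count over the 5 lines was 1 to 9 and that of int-a.1 at W5.5 was 0 to 1. MLOC_69611.1 was called in 0 of 364 alternatives; its log2 fold in int-a.1 was -0.365 to -0.114 at W5.5 and -0.164 to 0.237 at W3.5, so its sign at W3.5 depended on the setting. The filter removed 0 transcripts, so leaving it out was void. The column headers number replicates within each group. Libraries of the same number in different groups deviated from their group means with a median r of -0.0106 (136 pairs), against -0.0104 for other numbers (324 pairs). Single pairs ran from -0.464 to 0.438 and from -0.471 to 0.452, so pairing in some groups cannot be told from these medians. With the number as a replicate block, added after the data were seen, the jumonji count over the 5 lines was 4, no call of the members changed, and the int-a.1 log2 fold of MLOC_69611.1 over both stages was 0.0135. Depth is unknown from TPM.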
